A study of Mus musculus with 102 samples.

Results

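The inflammatory cytokine genes of spinal cord microglia were examined as a group of 9 listed members: Tnf, Il1a, Il1b, Il6, Il10, Il18, Il1rn, Osm and Csf1. A member was taken where the deposited normalized table carried a row with its mouse symbol, and its raw counts were then found by gene identifier. Of the 9 listed genes, 8 were among the 18856 genes of that table. Il10 had no row there and is described from the raw table of 53715 genes alone.

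The cells were resident microglia sorted by flow cytometry from lumbar spinal cord, and 17 numbered samples in 6 groups were sequenced in a mouse model of chemotherapy-induced peripheral neuropathy, the nerve damage and pain that follow drugs such as cisplatin. The WT groups were naive mice without injection (samples 1, 2 and 3), mice given intraperitoneal cisplatin on days 1 and 3 and intrathecal saline on day 7 (samples 4, 5 and 6), and mice given the same cisplatin and intrathecal AIBP on day 7 (samples 7 and 9). The KO groups carried the ABC-imKO genotype, Abca1fl/fl Abcg1fl/fl Cx3cr1-CreERT2, in which an inducible Cre under the Cx3cr1 promoter acts on the floxed genes of the cholesterol exporters ABCA1 and ABCG1. They received the same 3 treatments: naive (1, 2 and 3), cisplatin saline (4, 5 and 6) and cisplatin AIBP (7, 8 and 9). AIBP, the apolipoprotein A-I binding protein, promotes removal of cholesterol from cells. The naive groups received neither the drug nor a spinal injection, so those 2 interventions cannot be told apart in a comparison with naive.

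Microglia are the resident macrophages of the brain and spinal cord, and in pain models their cytokines are studied as signals to dorsal horn neurons. TNF and the interleukin-1 proteins are early inflammatory cytokines whose genes are induced within minutes to hours by transcription factors such as NF-kB and AP-1. Interleukin-1 beta and interleukin-18 are made as inactive precursors and cut by caspase-1, whereas the interleukin-1 receptor antagonist, encoded by Il1rn, occupies the receptor without signaling. Interleukin-6 and oncostatin M signal through receptors that share the gp130 chain, interleukin-10 dampens inflammatory responses, and CSF1 maintains macrophages and microglia through its receptor CSF1R.

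Sequencing depth was 45.1 to 76.6 M gene counts per numbered sample, with a median of 63.1 M. Levels are given as CPM, the counts per M gene counts of a sample, scaled by the trimmed mean of M-values. All 12 microglia markers exceeded 1 CPM in every sample. Their sum was 56391 to 64181 CPM in WT naive, 31349 to 40461 in WT cisplatin saline, 44649 to 47062 in WT cisplatin AIBP, 46188 to 58272 in KO naive, 22432 to 26157 in KO cisplatin saline and 28289 to 37069 CPM in the KO samples labelled cisplatin AIBP, so it was lower without overlap in every treated group than in naive of the same genotype. Its part in the differences from naive given here, those of Il6, Il18, Il6ra, Il10ra, Il6st, Socs1, Nfkb1 and Ebi3 included, was not tested. The highest marker sum of a sample was 22.9 CPM for neutrophils, 5.47 for T and NK cells, 18.8 for neurons, 53.6 for endothelial cells, 151 for border macrophages, 410 for astrocytes and 909 CPM for oligodendrocytes. The B cell markers summed to at most 1548 CPM, most of it Ighm, with Ms4a1 at 0 in every sample. The 9 monocyte markers summed to 4.53 to 78.2 CPM in WT naive, 248 to 1164 in WT cisplatin saline, 206 to 293 in WT cisplatin AIBP, 18.7 to 37 in KO naive, 798 to 1269 in KO cisplatin saline and 289 to 842 in KO cisplatin AIBP samples. In the cisplatin saline groups most of that sum was Fn1, at 236 to 874 CPM in WT and 639 to 1088 CPM in KO. Abca1 stood at 41.1 to 114 CPM in WT and 32.6 to 105 CPM in KO samples, and Abcg1 at 36.2 to 160 and 25.6 to 68.4 CPM. Such gene-level counts do not measure the floxed exons. Cx3cr1 stood at 5531 to 10656 CPM in WT, 1718 to 4871 CPM in KO naive and KO cisplatin saline, and 5250 to 7078 CPM in the KO samples labelled cisplatin AIBP. These 3 samples thus lay in or near the WT range, apart from the other KO samples, and their genotype label is in doubt. Every comparison that uses them, the genotype differences of AIBP included, rests on that label. Nothing in the labels tells if 1 mouse or a pool made up a numbered sample, so the p-values measure only the spread between these samples. In bulk samples fewer cells of a type and less RNA per cell cannot be told apart.

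The 250 bases before the annotated start of 4 members are shown because Tnf, Il1a and Il1b varied together across the samples while Il6 did not follow them. The RefSeq windows of build GRCm38.p6 were Tnf at chr17:35202008-35202257 (minus strand), Il1a at chr2:129309973-129310222 (minus strand), Il1b at chr2:129371140-129371389 (minus strand) and Il6 at chr5:30012864-30013113 (plus strand). Each is written 5′ to 3′ on the strand of the gene, with matches to the AP-1 heptamer TGANTCA or the NF-kB consensus in capitals.
Tnf: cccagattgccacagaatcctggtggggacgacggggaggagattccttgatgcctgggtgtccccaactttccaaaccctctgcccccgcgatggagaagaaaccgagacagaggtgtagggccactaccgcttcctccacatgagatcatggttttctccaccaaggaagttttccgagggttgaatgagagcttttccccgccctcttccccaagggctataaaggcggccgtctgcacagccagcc
Il1a: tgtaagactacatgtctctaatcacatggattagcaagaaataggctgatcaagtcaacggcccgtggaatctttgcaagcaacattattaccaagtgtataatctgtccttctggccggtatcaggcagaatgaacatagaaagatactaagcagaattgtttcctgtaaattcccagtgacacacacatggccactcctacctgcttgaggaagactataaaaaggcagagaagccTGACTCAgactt
Il1b: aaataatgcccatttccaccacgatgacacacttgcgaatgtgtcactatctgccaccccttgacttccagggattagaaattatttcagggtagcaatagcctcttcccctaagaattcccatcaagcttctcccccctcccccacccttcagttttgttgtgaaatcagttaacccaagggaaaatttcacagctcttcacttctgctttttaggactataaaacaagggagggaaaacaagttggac
Il6: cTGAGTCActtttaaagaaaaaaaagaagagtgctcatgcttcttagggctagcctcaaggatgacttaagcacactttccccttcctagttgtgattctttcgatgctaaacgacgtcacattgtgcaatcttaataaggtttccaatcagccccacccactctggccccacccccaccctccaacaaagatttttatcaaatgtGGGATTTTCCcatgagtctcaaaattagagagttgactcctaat
Il6 held both kinds of match, the AP-1 heptamer beginning 249 bases and the NF-kB consensus beginning 44 bases before the start. Il1a held an AP-1 heptamer beginning 12 bases before the start, and the windows of Tnf and Il1b held neither motif. Both strands were searched, and the motifs did not overlap. Of 32817 windows of the same length, 7.25% held the NF-kB consensus and 6.75% the AP-1 heptamer. Among the other members, 1 of the 3 windows of Il1rn held an AP-1 heptamer beginning 141 bases before its start, the window of Csf1 held an NF-kB match, and that of Il18 held none. Sequence entries were found for 7 of the 9 members, and Osm and Il10 are named only. A match describes letters in a window, and a missing match says only that those letters are not in it.

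The 8 measured members fell into an upper and a lower set of 4 when levels were compared per kilobase of annotated exon. Averaged over the 17 samples, Tnf stood at 56.1, Il1a at 51.9, Osm at 30.8 and Il18 at 30.5 CPM per kb. Il1b stood at 5.38, Csf1 at 4.01, Il6 at 2.58 and Il1rn at 1.82 CPM per kb. Il1a, Tnf, Il18 and Osm held the first 4 places in every group, and in 5 of the 6 groups no sample of any of them overlapped with any of the other 4. In KO cisplatin saline Il1b reached 7.3 CPM per kb, above the lowest Tnf and Osm samples at 6.98 and 7.0. Within the upper set neighbours often overlapped: in WT naive Il1a, Il18, Tnf and Osm could not be ordered beyond their spread. In WT cisplatin saline Tnf led at 100.003 CPM per kb with a range of 61.3 to 164, which overlapped with Il1a. In the lower set Il6 led in WT naive and came last in both WT cisplatin groups. By CPM alone, Il1a lay at the 90.8th percentile of the 20461 tested genes, Tnf at the 89.5th, Osm at the 86.2nd, Il18 at the 73.8th and Il6 at the 53.8th.

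**Figure D1:**
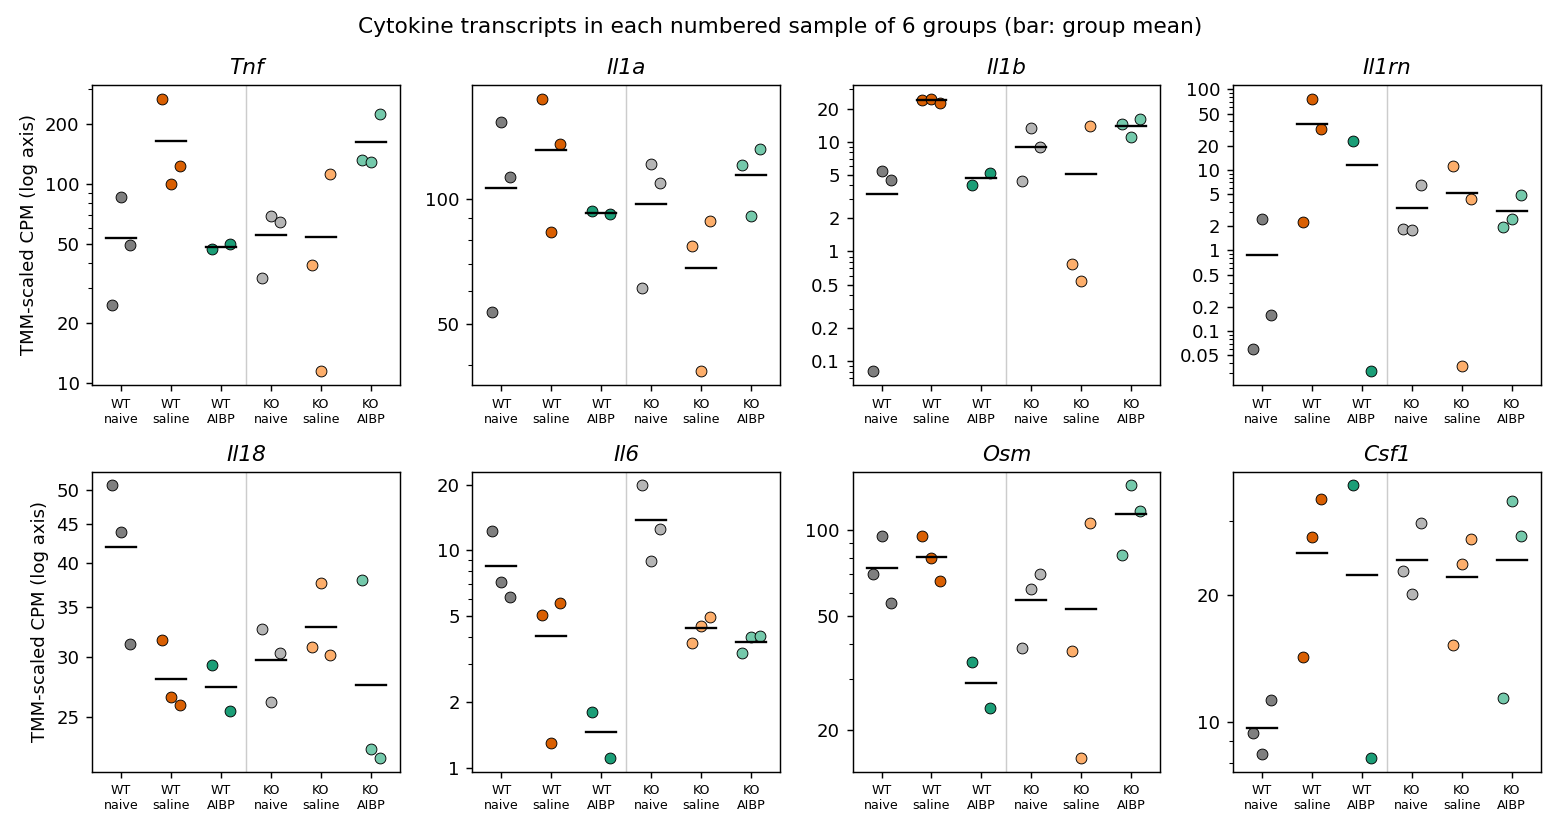
Levels of the 8 measured cytokine genes in each numbered sample (CPM, log axis), with 1 panel per gene, the 6 groups along the x axis and a bar at each group mean; saline and AIBP groups all had cisplatin. Tnf and Il1b lay higher in the 3 WT cisplatin saline samples than in the other 5 WT samples, and Il6 lay highest in the naive groups.

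Tnf (ENSMUSG00000024401, chr17:35199381-35202007, minus strand), the gene of the founding member of the tumor necrosis factor family, had 24.5, 85.8 and 49.5 CPM in the naive WT samples 1, 2 and 3. WT cisplatin saline samples 4, 5 and 6 had 268, 100.5 and 123 CPM, and WT cisplatin AIBP samples 7 and 9 had 46.9 and 49.7 CPM. All 3 saline samples lay above the other 5 WT samples. Naive KO samples had 33.6, 69.0 and 64.1 CPM of Tnf, those given cisplatin and saline 39.2, 11.4 and 112 CPM, and those labelled cisplatin AIBP 131, 129 and 225 CPM. The last 3 were the highest of the 9 KO samples, and the saline samples were spread to both sides of the naive ones. The log2 fold change was 1.62 ± 0.65 (SE) for WT cisplatin saline over naive, a fold of 3.08, and -1.76 ± 0.76 for AIBP over saline in WT. In edgeR's quasi-likelihood test, adjusted over all tested genes, the p-values were 0.225 and 0.996. For AIBP over saline in KO it was 1.58 ± 0.65 (adjusted p = 0.706), and over KO naive 1.54 ± 0.65 (adjusted p = 0.260). The former was 2.68 without KO cisplatin saline 6, and 1.10 to 2.68 over all single omissions. KO against WT gave -1.60 ± 0.65 after saline (adjusted p = 0.526) and 1.74 ± 0.76 after AIBP (adjusted p = 0.732). No Tnf comparison passed the threshold of 0.05. For naive KO against WT the difference was 0.06 with a 95% interval of -1.3 to 1.42. The high value of WT cisplatin saline sample 4 rested in part on 1 technical library at 505 CPM, unscaled, beside 151 and 147 CPM in its other 2 libraries, whereas the 3 libraries of KO cisplatin saline sample 5 all lay between 11.6 and 14.1 unscaled CPM.

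Il1a (ENSMUSG00000027399, chr2:129299610-129309972, minus strand) encodes interleukin-1 alpha, which is active without cleavage by caspase-1. Its WT levels were 53.5, 153 and 113 CPM without treatment, 175, 83.7 and 136 CPM with cisplatin and saline, and 93.9 and 92.1 CPM with cisplatin and AIBP. These 3 groups overlapped throughout. Its KO levels were 61.1, 121 and 109 CPM without treatment, 77.3, 38.5 and 88.9 CPM with cisplatin and saline, and 121, 91.2 and 132 CPM in the KO samples labelled cisplatin AIBP. The 3 AIBP samples lay above the 3 saline samples, by a narrow gap, and overlapped with naive. After cisplatin and saline KO differed from WT by a log2 fold change of -0.95 ± 0.40 (edgeR adjusted p = 0.528). The cisplatin comparison in WT gave 0.30 ± 0.39, with a 95% interval of -0.54 to 1.14.

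Il1b (ENSMUSG00000027398, chr2:129364570-129371139, minus strand), which encodes the precursor of interleukin-1 beta, gave one of the tightest groups. The 3 WT cisplatin saline samples had 24.1, 24.7 and 22.7 CPM, against 0.0809, 5.39 and 4.51 CPM in the naive samples 1, 2 and 3 and 4.04 and 5.21 CPM in WT cisplatin AIBP. The saline samples stood apart from the other 5 WT samples, with no overlap. Naive KO samples had 4.38, 13.4 and 9.0 CPM of Il1b, those given cisplatin and saline 0.767, 0.543 and 13.9 CPM, and those labelled cisplatin AIBP 14.4, 11 and 16.2 CPM. KO cisplatin saline samples 4 and 5 were lower than all other KO samples, but sample 6 lay among the AIBP samples, so those groups overlapped. All 3 KO cisplatin saline samples lay below the 3 WT ones. The fold for WT cisplatin saline over naive was 7.16, a log2 fold change of 2.84 ± 1.18 with an edgeR adjusted p of 0.239. In KO the same comparison gave -0.82 ± 1.11, and the genotype difference of the 2 was -3.65 ± 1.61 (adjusted p = 0.638). The genotype difference of the AIBP effect was 3.81 ± 1.76 (adjusted p = 0.786). Per kilobase Il1a exceeded Il1b in 17 of 17 samples, by 3.27 to 639 times with a median of 11.7.

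Il1rn (ENSMUSG00000026981, chr2:24336853-24351494, plus strand), the gene of the interleukin-1 receptor antagonist, was the most uneven member. WT samples had 0.0606, 2.44 and 0.159 CPM when naive, 2.27, 76.6 and 32.2 CPM with cisplatin and saline, and 22.7 and 0.0316 CPM with cisplatin and AIBP. WT cisplatin saline samples 5 and 6 were the highest of all 17, and sample 4 of that group lay within the naive range. KO samples had 1.84, 1.80 and 6.44 CPM when naive, 11.1, 0.0370 and 4.36 CPM with cisplatin and saline, and 1.96, 2.48 and 4.82 CPM under the label of cisplatin AIBP. The KO groups overlapped. The WT cisplatin comparison gave a fold of 41.7, a log2 fold change of 5.38 ± 2.04 (edgeR adjusted p = 0.196). Ccr2, which marks inflammatory monocytes, stood at 95.3 and 62.8 CPM in the same WT cisplatin saline samples 5 and 6 and at no more than 10.2 CPM in the other 15. All 9 monocyte markers exceeded 1 CPM in those 2 samples and in KO cisplatin saline sample 5. The 8 border macrophage markers summed to 151 and 98.4 CPM in the same 2 samples and to at most 74.6 CPM in the others, with Lyve1 at 0 and Cd163 at or near 0 in all. F13a1, which is also among the monocyte markers, held 80.8 and 49.2 CPM of the sums in those 2 samples. Without WT cisplatin saline samples 5 and 6 together, the Il1rn difference was 1.40 (adjusted p = 0.958), and the AIBP difference in WT moved from -1.70 to 2.31. With the monocyte marker score as a covariate the cisplatin difference of Il1rn was 2.53 (edgeR adjusted p = 0.917). That fit called 15 of 20461 genes in this comparison, against 595 without the covariate. The part of other cell types in the Il1rn levels was not tested. Il1rn exceeded Il1b per kilobase in 3 of 17 samples.

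Il18 (ENSMUSG00000039217, chr9:50554827-50581840, plus strand), the gene of the precursor of interleukin-18, was the steadiest member. Among WT samples the naive ones had 50.7, 44 and 31.2 CPM, the saline ones 31.6, 26.6 and 25.9 CPM, and the AIBP ones 29.2 and 25.5 CPM. Both AIBP samples lay below the naive samples, and the saline group overlapped with naive through sample 4 alone. Among KO samples the naive ones had 32.7, 26.1 and 30.4 CPM, the saline ones 31, 37.6 and 30.2 CPM, and those labelled AIBP 37.9, 22.7 and 22.0 CPM. All KO groups overlapped. In WT the log2 fold change over naive was -0.58 ± 0.25 for cisplatin saline (edgeR adjusted p = 0.249) and -0.62 ± 0.28 for cisplatin AIBP (adjusted p = 0.338). In KO the cisplatin saline difference was 0.15, with a 95% interval of -0.39 to 0.68.

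Il6 (ENSMUSG00000025746, chr5:30013114-30019981, plus strand), the gene of interleukin-6, was highest in naive samples of both genotypes. Its levels in WT were 12.2, 7.12 and 6.11 CPM in naive samples, 5.07, 1.3 and 5.74 CPM after saline, and 1.81 and 1.11 CPM after AIBP. All 5 treated WT samples lay below the 3 naive ones, and the 2 treated groups overlapped through saline sample 5. Its levels in KO were 19.9, 8.93 and 12.6 CPM in naive samples, 3.77, 4.49 and 4.91 CPM after saline, and 3.38, 4.0 and 4.03 CPM in those labelled AIBP. All 6 treated KO samples lay below the naive ones, by a wide gap. In edgeR the log2 fold change of cisplatin AIBP over naive was -2.54 ± 0.65 in WT (adjusted p = 0.0794) and -1.86 ± 0.54 in KO (adjusted p = 0.0893). Cisplatin saline over naive gave -1.65 ± 0.54 in KO (adjusted p = 0.108) and -1.07 ± 0.53 in WT. These 4 comparisons share their naive samples within a genotype. Il6 was called in DESeq2 in the KO cisplatin comparison (adjusted p = 0.00868) and in both comparisons of AIBP with naive (adjusted p = 0.000364 in WT and 0.00296 in KO). AIBP over saline gave -1.47 ± 0.62 in WT (edgeR adjusted p = 0.996), and KO against WT after AIBP gave 1.38 ± 0.62 (adjusted p = 0.732).

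Osm (ENSMUSG00000058755, chr11:4236420-4241026, plus strand), the gene of oncostatin M, had WT levels of 69.9, 95.1 and 55.4 CPM in naive samples, 95.1, 79.6 and 66.4 CPM after saline, and 34.6 and 23.8 CPM after AIBP. The 2 AIBP samples lay below the other 6 WT samples. KO levels were 38.7, 62.1 and 69.9 CPM in naive samples, 37.6, 15.9 and 106 CPM after saline, and 81.4, 143 and 116 CPM in those labelled AIBP. These 3 lay above all KO naive samples, and overlapped with the saline group through saline sample 6. The log2 fold change for AIBP over saline was -1.46 ± 0.57 in WT (edgeR adjusted p = 0.996) and 1.10 ± 0.49 in KO (adjusted p = 0.706). The KO value was 2.09 without KO cisplatin saline 6 and 0.67 without KO cisplatin saline 5. AIBP over naive gave -1.33 ± 0.57 in WT (adjusted p = 0.306). KO against WT after AIBP gave 1.96 ± 0.59 (adjusted p = 0.732, and 0.0444 in DESeq2).

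Csf1 (ENSMUSG00000014599, chr3:107741048-107760469, minus strand), the gene of macrophage colony-stimulating factor, had WT levels of 9.42, 8.38 and 11.2 CPM in naive samples, 14.2, 27.5 and 33.7 CPM after saline, and 36.4 and 8.20 CPM after AIBP. The naive samples lay below all 3 saline samples, and the AIBP samples stood at opposite ends of the WT range. KO levels were 22.8, 20.1 and 29.6 CPM in naive samples, 15.2, 23.7 and 27.2 CPM after saline, and 11.4, 33.4 and 27.6 CPM in those labelled AIBP. The KO groups overlapped, and all 3 KO naive samples lay above the 3 WT naive ones. The log2 fold change was 1.38 ± 0.51 for WT cisplatin saline over naive (edgeR adjusted p = 0.183), 1.20 ± 0.55 for WT cisplatin AIBP over naive (adjusted p = 0.339) and 1.32 ± 0.51 for KO over WT in naive (adjusted p = 0.789). The WT cisplatin AIBP value turned to -0.22 without sample 7. Without WT cisplatin saline samples 5 and 6 the cisplatin difference in WT was 0.60.

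Il10 (ENSMUSG00000016529, chr1:131019845-131024974, plus strand), the gene of the anti-inflammatory interleukin-10, had 45 counts in the whole raw table. All of them came from 1 of the 3 technical libraries of WT cisplatin saline sample 6, which gave that sample 0.735 CPM. The other 16 samples had no count, which allows up to 0.0391 to 0.0666 CPM (3 counts) depending on depth, for counting error only. No comparison was made.

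None of the 8 measured members passed edgeR's test at an adjusted p under 0.05 in any of the 11 comparisons, and limma-voom called none either. For cisplatin saline over naive, the question of what the drug and the saline injection did to the members, 2.91% of all tested genes were called in WT and 4.41% in KO. At an unadjusted p under 0.05 there were 5 of 8 members in WT (Tnf, Il1b, Il18, Il1rn and Csf1), against 17.6% of all genes, and 1 of 8 in KO (Il6), against 18.1%. DESeq2 called Il1rn in WT (adjusted p = 0.0171) and Il6 in KO. In that fit 2097 of 17846 genes were called in WT and 2423 of 18365 in KO. The members' median log2 fold change was 0.84 in WT and -0.12 in KO, beside -0.01 and -0.04 over all genes. In WT, Tnf, Il1b and Csf1 were higher in every saline sample than in every naive one, where 12% of all genes were so, and Il6 was lower in every one, where 10.7% of all genes were so. In KO only Il6 had groups that did not overlap, on the lower side, against 11.5% of genes. The genotype difference of the cisplatin effect was called for 0% of all genes and for no member. It reached an unadjusted p under 0.05 for 1 of 8 members (Il1b) and 7.63% of genes.

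For AIBP over saline, both after cisplatin, the call shares over all genes were 0% in WT and 0.00977% in KO. All 8 members had a negative difference in WT, with a median of -1.46 beside -0.03 over all genes, and 5 of 8 a positive one in KO, with a median of 0.44 beside 0. In WT this sign was not kept by all: without saline samples 5 and 6 Il1rn turned to 2.31 and Csf1 to 0.63, with the monocyte score Csf1 turned to 0.35 and Il1rn to 0.01, and with the stress score Il1a turned to 0.23. Il18, at -0.03, also changed sign in 2 of 18 alternatives. These AIBP comparisons use the same saline samples as the cisplatin comparisons, so a saline group that lies high or low enters both with opposite signs. At an unadjusted p under 0.05 there were 3 members in WT (Tnf, Il6 and Osm), against 3.71% of genes, and 2 in KO (Tnf and Osm), against 6.62%. DESeq2 called no member in either AIBP comparison, where it called 123 of 18365 genes in WT and 216 of 18881 in KO. Tnf, Il1b and Osm were lower in both WT AIBP samples than in all WT saline samples, as were 9.14% of genes. Tnf and Il1a were higher in all KO samples labelled cisplatin AIBP than in all KO saline samples, as were 4.17% of genes. The test of the genotype difference of the AIBP effect, called for 0% of genes, gave a log2 difference of 3.34 ± 1.00 for Tnf (95% interval 1.19 to 5.48) and 2.56 ± 0.76 for Osm (0.95 to 4.18). Their unadjusted edgeR p-values were 0.00476 and 0.00420, and adjusted over all genes both were 0.774. With Il1b, 3 of 8 members were under an unadjusted p of 0.05 there, against 6.28% of genes.

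**Figure D2:**
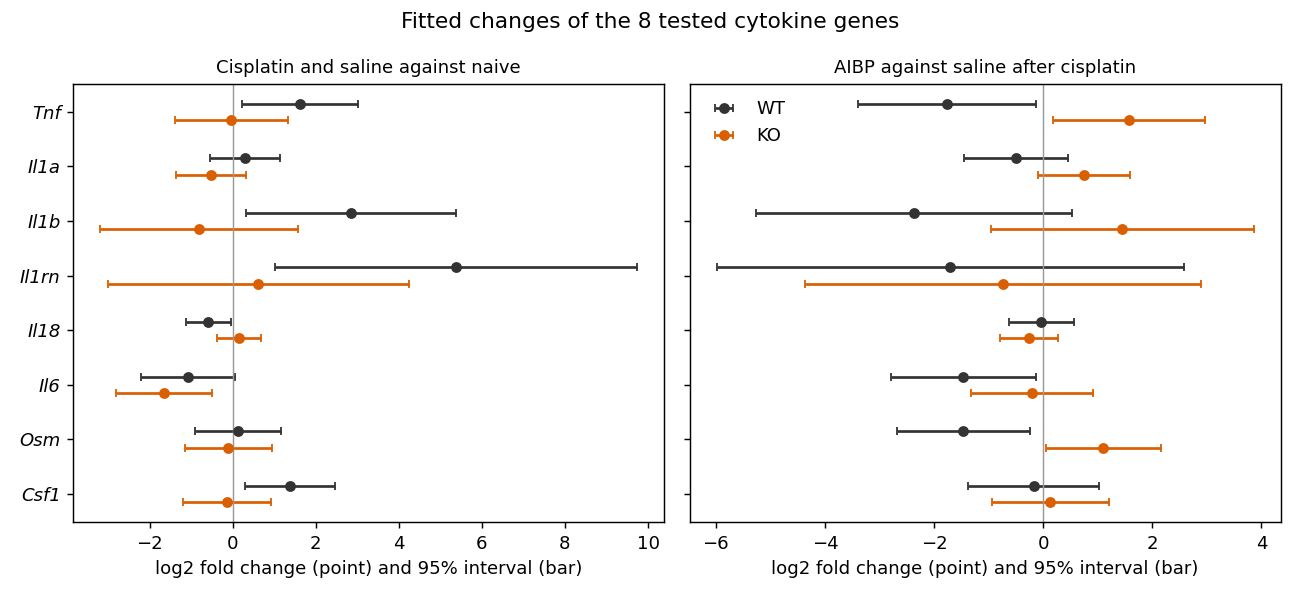
Log2 fold changes of the 8 measured members with 95% intervals, for cisplatin saline over naive and for AIBP over saline, in WT and in KO. In WT all 8 AIBP points lie below 0; Tnf and Osm lie above 0 for AIBP in KO, and no adjusted p was under 0.05.

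For cisplatin AIBP over naive, 1.25% of genes were called in WT and 2.68% in KO. Il6, Il18, Osm and Csf1 had an unadjusted p under 0.05 in WT (4 of 8, against 14.3% of genes), and Tnf and Il6 in KO (2 of 8, against 16.6%). DESeq2 called Il6 in each, where it called 1532 of 17350 genes in WT and 1952 of 17350 in KO. Il6, Il18 and Osm were lower in both WT AIBP samples than in all WT naive ones, as were 16.3% of genes. In KO, Tnf and Osm were higher (10.1% of genes) and Il6 lower (9.77%) without overlap.

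Between genotypes, 0.00489% of genes were called in naive samples, 0.044% after cisplatin and saline, and 0% after cisplatin and AIBP. The members at an unadjusted p under 0.05 were Csf1 in naive (1 of 8, against 5.96% of genes), Tnf and Il1a after saline (2 of 8, against 8.98%), and Tnf, Il6 and Osm after AIBP (3 of 8, against 6.35%). DESeq2 called Osm after AIBP, but its count over all genes for that comparison is not given here. After saline, 6 of 8 members had a negative difference of KO from WT, with a median of -0.77 beside -0.01 over all genes, and Il1b was lower in every KO sample (6.4% of genes were so). After AIBP, 7 of 8 had a positive one, with a median of 0.84 beside 0.02, and Tnf, Il1b, Il6 and Osm were higher in every sample labelled KO cisplatin AIBP than in both WT ones (10.8% of genes were so). In naive samples Csf1 alone did not overlap, being higher in KO (5.49% of genes were so).

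Immediate early genes, which cell dissociation can switch on, moved with several members. The summed level of 23 immediate early and stress genes, such as Fos and Dusp1, was 26845, 54963 and 23436 CPM in the naive WT samples, 33229, 11111 and 18945 CPM after saline, and 9800 and 9957 CPM after AIBP. It was 10010, 32360 and 42381 CPM in KO naive, 9467, 4535 and 16109 CPM in KO cisplatin saline, and 19551, 19799 and 37094 CPM in the KO samples labelled cisplatin AIBP. WT AIBP samples were thus lower in it than all WT saline samples, and the KO AIBP samples higher than all KO saline samples, the same directions as for Tnf. For the relations and the covariate, the score was the mean log2(CPM + 1) of the 23 genes, which weighs them evenly, and the monocyte score was formed likewise. Over the 17 samples, Il1a followed the stress score with Pearson r = 0.773 (adjusted permutation p = 0.00232) and Spearman rho = 0.728 (adjusted permutation p = 0.0238), and r was 0.632 without the 2 farthest samples, KO cisplatin saline 4 and 5. Osm gave r = 0.773 (adjusted permutation p = 0.00232), rho = 0.679 (0.0247) and 0.607 without those samples. Tnf gave r = 0.675 (adjusted permutation p = 0.0159) and rho = 0.608 (0.0443), and 0.452 without them, so it rested in part on those 2 samples. After subtraction of group means, r was 0.901 for Tnf, 0.851 for Il1a and 0.753 for Osm. These were 16 relations, 8 members with 2 scores, each tested with 100000 permutations. The permutations ran over all 17 samples without regard to group. Their p-values thus do not separate a relation between samples from differences between groups. The monocyte score was related to Il6, at r = -0.595 (adjusted permutation p = 0.0473) and rho = -0.662 (0.0247). That r was -0.584 without WT cisplatin saline 5 and 6 and -0.426 within groups. Csf1 gave r = 0.560 (adjusted permutation p = 0.0581) and rho = 0.593 (0.0454) with the monocyte score. Il1rn gave r = 0.534 (adjusted permutation p = 0.0646), and 0.148 without WT cisplatin saline 5 and 6.

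With the stress score as a covariate, the AIBP difference of Tnf was -0.47 in WT and 0.05 in KO, and its genotype difference 0.52. For Osm these were -0.75, 0.19 and 0.94. The cisplatin difference of Tnf in WT was 1.99 in that fit, with an edgeR adjusted p of 0.0083, and that of AIBP over naive in KO was 1.48 (adjusted p = 0.0276). Whether the score marks handling of the cells or their state in the animal was not tested.

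**Figure D3:**
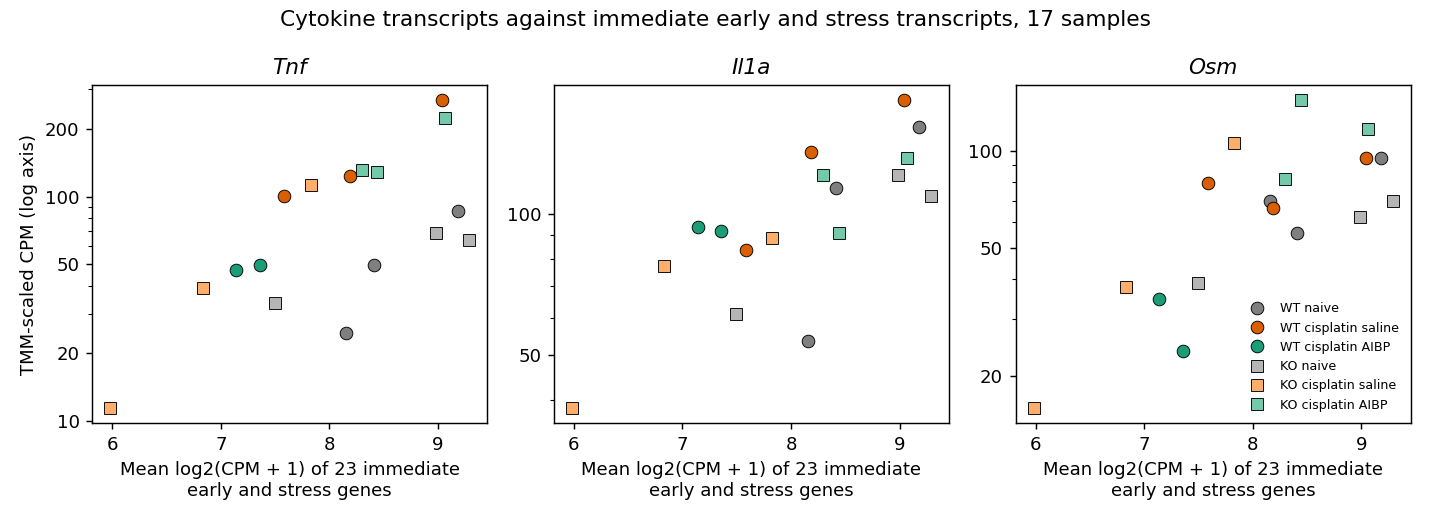
Tnf, Il1a and Osm (CPM) on a log axis against the mean log2(CPM + 1) of 23 immediate early and stress genes, each point 1 of the 17 samples, colored by group. All 3 cytokine genes lie higher in samples with a higher score, with Pearson r of 0.675, 0.773 and 0.773.

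Each numbered sample was sequenced as 3 technical libraries, so a member's level can be compared between libraries of 1 sample. Library levels are CPM without the scaling used for sample levels. The ratio of the highest to the lowest library of a sample had a median of 1.58 for Il1a, 1.62 for Osm, 1.87 for Il18 and 1.99 for Tnf. It was 2.48 for Il1b (15 samples), 2.66 for Il6 (15), 2.83 for Csf1 (17) and 3.97 for Il1rn (8). A sample with a library at 0 gave no ratio. The 4 lower members were thus the more uneven ones. Of 51 libraries, 26 were under 1 CPM for Il1rn, 14 for Il1b, 8 for Il6 and 3 for Csf1, and none for the 4 higher members. In KO naive sample 3 Il1b stood at 13, 0 and 10.4 CPM in the 3 libraries, and in WT naive sample 2 Csf1 stood at 0.359, 19.5 and 4.68 CPM. Libraries both under 1 CPM and over 5 CPM occurred within 1 sample in 6 samples for Il1rn, 5 for Il1b, 4 for Il6 and 3 for Csf1.

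**Figure D4:**
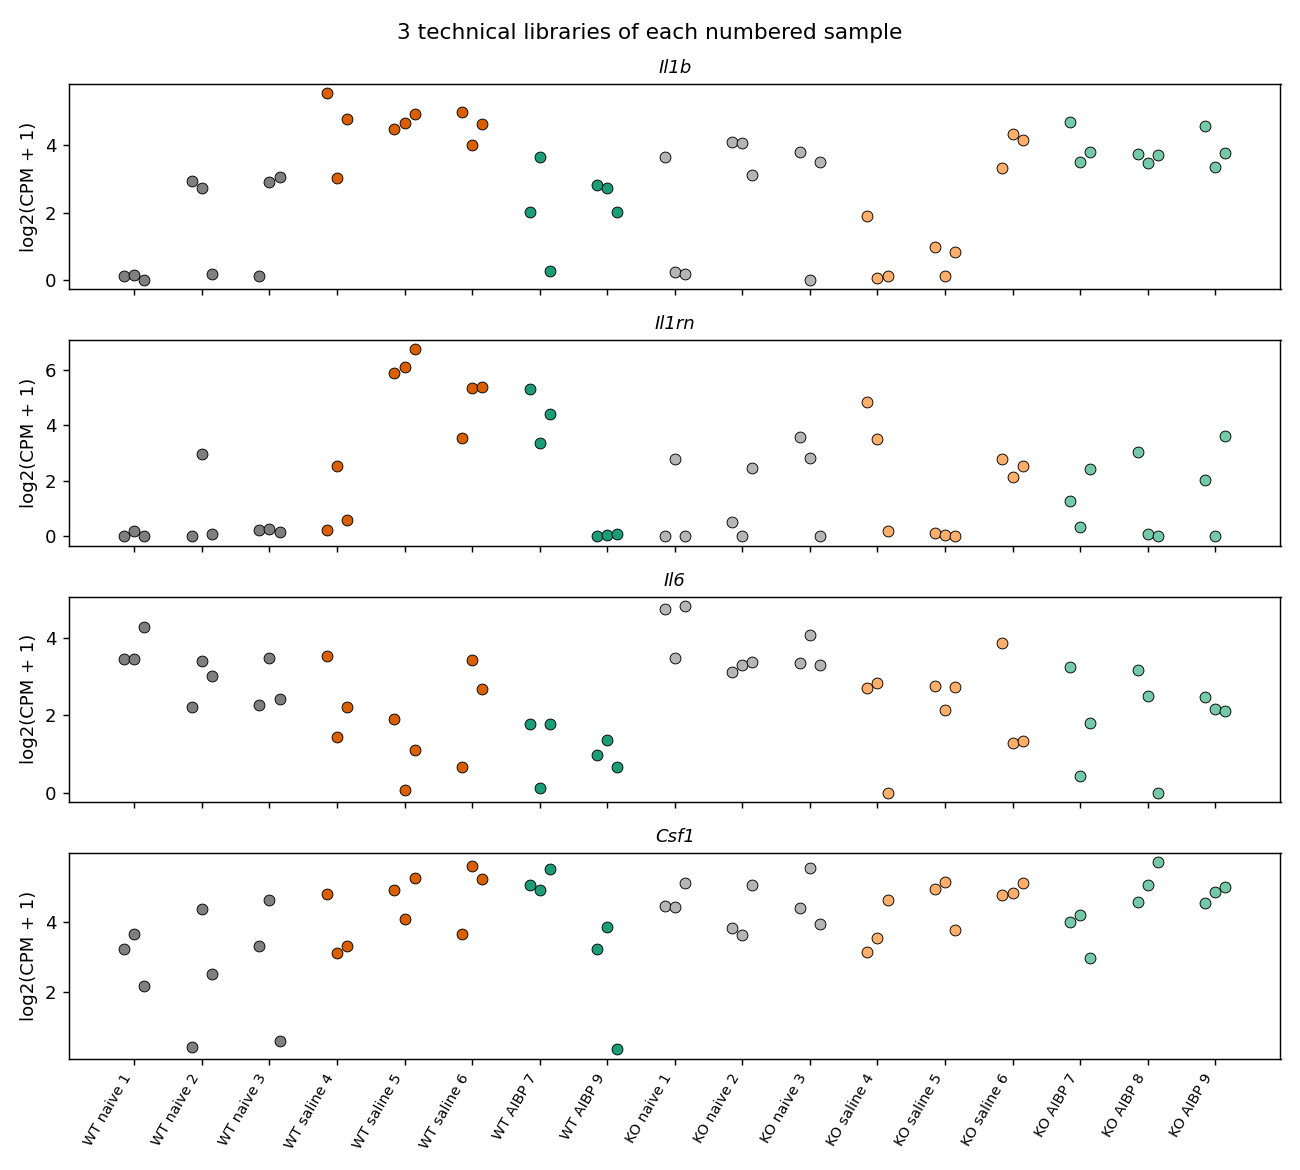
Levels of Il1b, Il1rn, Il6 and Csf1 in the 3 technical libraries of each numbered sample, as log2(CPM + 1) of unscaled CPM, with samples along the x axis. Il1rn was under 1 CPM in 26 of 51 libraries and Il1b in 14, some of them beside a library of the same sample over 5 CPM.

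The genes most like each member across the 17 samples were ranked by Pearson r of log2(CPM + 1) among the 8222 genes, predicted gene models left out, whose mean reached 10 CPM. The samples share depth differences and the groups, so these are descriptions. Tnf was nearest to Nr4a1 (r = 0.899, and 0.924 within groups), an immediate early gene, then to Il1b (0.871) and to the chemokine gene Ccl3 (0.836). Il1a was nearest to Tnf (0.834), Ccl3 (0.809) and Gem (0.807), and Il1b after Tnf to Eps15l1 (0.847) and the chemokine gene Cxcl10 (0.826). Osm was nearest to Cfap45 (0.893), Ccl3 (0.883) and Ccrl2 (0.858). Ccl3 was thus among the 3 nearest genes of Tnf, Il1a and Osm. Il1rn was nearest to Cd74 (0.761), Naa25 (0.743) and H2-Aa (0.735), of which Cd74 and H2-Aa belong to antigen presentation by MHC class II. Il18 was nearest to Zfp697 (0.824), Tug1 (0.824) and Arglu1 (0.822), and Csf1 to Ncbp1 (0.793), Pdzd11 (0.778) and Dhx29 (0.771). Among members, Tnf and Osm had r = 0.798, Il1a and Il1b 0.726, and Tnf and Il6 -0.211.

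Receptors of the members differed widely in level. Group means of Csf1r, the receptor of CSF1, ran from 5497 to 8793 CPM, those of Il6ra from 382 to 789 CPM, and those of Il10ra from 246 to 664 CPM. For the TNF receptors they were 146 to 250 CPM for Tnfrsf1b and 135 to 181 CPM for Tnfrsf1a, and for the gp130 gene Il6st 88.2 to 233 CPM. The chains of the signaling interleukin-1 receptor were lower, at 7.38 to 17.2 CPM for Il1rap and 0.848 to 6.31 CPM for Il1r1. Il1r2 had a mean of 152 CPM in KO cisplatin saline, with samples from 8.31 to 243 CPM, and of at most 4.25 CPM in the other 5 groups. Il18r1 and Osmr reached at most 2.48 and 0.0501 CPM in any sample.

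Of 14 receptor genes 13 were tested. In WT, where 2.91% of all genes were called, 1 was lower after cisplatin and saline in edgeR's test: Il6ra fell from 789 ± 152 to 382 ± 83.3 CPM (SD; log2 fold change -1.05, adjusted p = 0.0211), a call lost without WT naive 1 or WT cisplatin saline 5 or 6. The monocyte marker sum was at most 78.2 CPM in that naive group and at least 248 CPM in the saline group, where most of it was Fn1. In KO, where 4.41% of all genes were called, 3 were higher and 2 lower. Lifr, a gp130 partner that binds leukemia inhibitory factor, rose from 114 ± 23.6 to 273 ± 39.9 CPM (log2 1.26, adjusted p = 0.00332). It kept its call in all 18 alternatives. Il18rap, the accessory chain of the interleukin-18 receptor, rose from 1.36 ± 0.53 to 32.5 ± 12.9 CPM, by 4.57 on the log2 scale (adjusted p = 0.0159), and Il1r2, the decoy receptor of interleukin-1, by 6.16 (adjusted p = 0.0412). Il10ra fell by 1.34 (adjusted p = 0.0219) and Il6st by 1.13 (adjusted p = 0.0272). Leaving out 1 sample ended these 4 calls: KO naive 1, 2 or 3 for Il18rap; KO naive 1 or 2 or KO cisplatin saline 4 or 5 for Il1r2; KO naive 1 or 2 or saline 5 or 6 for Il10ra; and any of KO naive 1, 2, 3, saline 4 or 5 for Il6st. The monocyte marker sum moved with these 5 genes, from at most 37 CPM in KO naive to at least 798 CPM in KO cisplatin saline. Fn1 made up most of the latter, at 639 to 1088 CPM, while Ccr2 stood at 0.227 to 6.74 CPM there. Over all alternatives the call was lost in 7 of 18 for Il18rap, 11 of 17 for Il1r2, 6 of 18 for Il10ra and 10 of 18 for Il6st. For Il6ra in WT it was lost in 7 of 19. A fit with the monocyte score as a covariate was among the alternatives in which Lifr kept its call. The outcome of that fit for the other called receptors is not given here. That fit called 76 of 20461 genes for the KO cisplatin comparison, against 903 without the covariate. Beyond that fit, the part of monocytes in the KO or WT changes was not tested. For KO over WT after saline, Lifr alone was called (1.26, adjusted p = 0.0443), a call lost without any WT cisplatin saline sample or without KO cisplatin saline 4 or 5. For AIBP over naive in KO, Il18rap was higher (3.81, adjusted p = 0.0469) and Il10ra lower (-1.28, adjusted p = 0.0391). Leaving out any 1 of the 6 samples ended the Il18rap call, and any but KO cisplatin AIBP 7 the Il10ra call.

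Of 13 tested genes for processing and secretion of the interleukin-1 family, such as caspase-1 and the inflammasome sensors, none was called in edgeR in the 11 comparisons. At an unadjusted p under 0.05 there were 5 in the WT and 6 in the KO cisplatin comparison, where 17.6% and 18.1% of all genes were so. Of 14 inhibitors and feedback genes, Socs1, which restrains cytokine receptor signaling, fell in KO after cisplatin and saline from 16.2 ± 3.5 to 3.20 ± 1.7 CPM (log2 -2.34, adjusted p = 0.0285), a call lost without KO naive 2 or 3 or any KO cisplatin saline sample. This list had a median of -0.85 for AIBP over saline in WT and 0.65 in KO, beside -0.03 and 0 over all genes. Of its genes, 4 had an unadjusted p under 0.05 in WT, among them Tnfaip3 and Nfkbia, which restrain NF-kB, and 2 in KO, where 3.71% and 6.62% of all genes were so, with no call. Dusp1 and Zfp36 of this list are also among the stress genes above. Of 14 signal transducers, Nfkb1, an NF-kB subunit, fell in KO after cisplatin and saline from 190 ± 5.8 to 73.1 ± 22.2 CPM (log2 -1.38, adjusted p = 0.0193) and was lower after AIBP than in naive (-1.25, adjusted p = 0.0434). The first call was lost without KO naive 1 or 2 or KO cisplatin saline 4, and the second without any KO naive sample or KO cisplatin AIBP 8 or 9.

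Of 22 other cytokine genes 16 were tested, and Ebi3, which encodes a subunit of interleukin-27, was the one called. After cisplatin and saline it fell from 47.5 ± 7.4 to 13.6 ± 1.9 CPM in WT (log2 -1.80, adjusted p = 0.0143) and from 33.6 ± 4.7 to 5.97 ± 3.0 CPM in KO (-2.49, adjusted p = 0.00166). After AIBP it stood at 7.72 ± 2.3 CPM in KO, lower than naive (-2.12, adjusted p = 0.00627). The KO calls held whichever sample was left out, but each was lost in 2 of 18 alternatives, with adjusted p up to 0.0713 for cisplatin saline and 0.0784 for cisplatin AIBP, and the WT call was lost without WT naive 1 or 2 or WT cisplatin saline 5 or 6.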

How the data were processed

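Microglial RNA was amplified from low input, and each of 17 numbered samples was sequenced as 3 technical libraries on 2 lanes. The submitters' processing notes name STAR 2.6.0a, FastQC 0.11.17, MultiQC 1.7, bcl2fastq, DESeq2 and build GRCm38. Counting tool and strand setting are not given in the sources used here. Deposited raw values are counts per gene and run, without normalization. The deposited normalized values are signal, counts divided by a size factor per run (0.437 to 1.62), and served to find the members and symbols.

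Here the 6 runs of a sample were summed, and R 4.3.3 with edgeR 4.0.16 (trimmed mean of M-values, filterByExpr, quasi-likelihood test over 6 group means, 11 residual degrees of freedom) tested 20461 genes, with Benjamini-Hochberg adjustment at 0.05. Depth of 45.1 to 76.6 M counts per sample and a biological coefficient of variation of 0.922 limit the precision. DESeq2 1.42.0, limma 3.58.1 (voom), other filters and scaling, omitted samples, technical libraries as units and 2 score covariates were alternatives. The procedure was run on simulated data to check the fitted fold changes. Their spread was smaller than that of these data, so the run says nothing about power here. Intervals are 95%. Promoter windows came from RefSeq (GRCm38.p6), and gene positions and exon lengths from GENCODE M21 on GRCm38.

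All members are described. Fold changes with SE are printed at an unadjusted p under 0.05, with at most 1 further comparison a member. Of the other lists, genes past the threshold are named, and otherwise the most abundant receptors. Tnfaip3, Nfkbia, Dusp1 and Zfp36 are named beyond that rule, without a call. The members and all lists were chosen with earlier results of these data known.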

Additional observations from a re-analysis of the deposited data

How the results depend on the processing

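The count of called members stayed at 0 in 202 of 216 alternatives, and leaving out any 1 sample changed no such count. DESeq2 called 1 member in the cisplatin comparison of WT, 1 in that of KO, 1 in AIBP over naive in WT, 1 in the same in KO, and 1 in KO against WT after AIBP. A stricter filter (10 CPM in 3 samples) called 1 in AIBP over naive in WT, where 677 of 9465 genes were called. The stress score as a covariate called 1 in the WT cisplatin comparison and 1 in AIBP over naive in KO. In that fit 526 and 533 of 20461 genes were called there. With the technical libraries as units and their number as a replicate block, 3 were called in the WT cisplatin comparison, 2 in AIBP over naive in WT, 2 in the same in KO, 2 in KO against WT after saline, 1 after AIBP and 2 in the genotype difference of the AIBP effect. That fit treats 3 libraries of 1 sample as independent, so it counts technical repeats as replicates. Of 16535 genes it called 2313 in the WT cisplatin comparison, 1617 in AIBP over naive in WT and 2109 in the same in KO. Its counts over all genes for the genotype comparisons are not given here, so the members called there stand without a share beside them. With the sample number as a replicate block, 0 members were called in the 5 genotype comparisons. After subtraction of group means, same-numbered samples correlated at -0.176 to 0.155, and 1 of 8 correlated best with its own number. Deviations from the means of such small groups are not independent, so this check cannot settle whether the numbers pair samples. No paired analysis was possible for the treatment comparisons because their groups share no numbers.

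For the 42 gene results with an unadjusted p under 0.05 or a call, 794 alternatives were run: 664 kept direction and side of the threshold, 110 lost a call and 19 gained one. Of these results 1 reversed, Csf1 in AIBP over naive in WT, whose range over omitted samples was -0.22 to 1.96. Over all 88 member comparisons, including those near 0, 43 changed sign in at least 1 alternative, in 120 of 1728 alternatives. Other scaling moved no member by more than 0.032. Depth limits the lowest levels: Il1rn, Il1b and Il6 were under 1 CPM in some libraries, and Il10 was without a count in 16 samples.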
